A study of Danio rerio with 16 samples.

Results

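The Slc25 family comprises the mitochondrial carriers, and its members were taken here as every gene whose symbol begins with slc25a and a number. Of the 15419 genes counted in embryonic zebrafish hearts, 49 were Slc25 members, and 39 of them had enough reads to be among the 11750 genes tested. The hearts came from Tubingen embryos at 48 h post-fertilization (hpf). The 8 DKO libraries were made from embryos homozygous for mutations in both *rbfox1l* and *rbfox2*, which encode RNA-binding splicing regulators, and the 8 control (CTRL) libraries from their siblings, labelled sibling control. The deposited design text calls the same CTRL hearts wild type. In both groups the embryos carried a *myl7:GFP* reporter that marks heart muscle, the mutations were present in every tissue, and each library was prepared from a separate pool of dissected hearts. Values below therefore describe pools rather than single hearts. Between 8809208 and 18783628 reads per library were counted on genes.

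Carriers of this family sit mostly in the inner mitochondrial membrane, which is otherwise closed to charged metabolites. Each exchanges or imports a particular substrate: ADP for ATP, phosphate for the ATP synthase, the carboxylates and amino acids that move reducing power between cytosol and matrix, or the cofactors that matrix enzymes need. Heart muscle relies on oxidative metabolism, and the ADP/ATP and phosphate carriers are among its most abundant membrane proteins. The carriers themselves are made in the cytosol and reach the inner membrane through a dedicated import route.

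Both targeted genes were lower in every DKO library than in every CTRL library. *rbfox1l* changed by −2.78 on the log2 scale (DKO over CTRL, SE 0.22, adjusted p = 7.30e-08) and *rbfox2* by −1.55 (SE 0.20, adjusted p = 1.35e-05) in edgeR's quasi-likelihood test, which is the test behind every adjusted p given for a single gene. Throughout, CPM denotes read counts scaled to library size with TMM factors, and a member is said to have risen or fallen when its p-value, adjusted over all 11750 genes, was under 0.05.

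Cell type markers differed in level between the 2 groups of pools, where 13.9% of all tested genes fell and 13.2% rose. At this stage the study counted similar numbers of cardiomyocytes in DKO and control ventricles, with smaller cells in DKO. Of 21 tested cardiomyocyte markers 13 fell and 0 rose, with a median log2 fold change of −0.87. These markers were mixed, from −2.10 for *csrp3* to 0.07 for *kcnh6a*, with *mef2ca* (−0.10), *mef2cb* (0.04) and *fhl2a* (−0.08) also near 0. Their summed level was 17923 to 35892 CPM in CTRL and 8323 to 20091 CPM in DKO libraries, and *gja3* was at 0 throughout. Among the endocardial and endothelial markers 8 of 12 fell (median −0.61; 1238 to 1863 against 748 to 1530 CPM). Most red blood cell markers were nearly lost, with 16 of 17 lower and a median of −6.81 (4189 to 10575 against 208 to 424 CPM). Some fell less: *epb41b* to 23.3%, *tfr1a* to 34.6% and *rhag* to 58.7%, while *blf* did not pass (adjusted p = 0.0866). At 173 to 381 CPM in DKO libraries, *rhag* was the largest part of what remained. In contrast, 9 of 13 epidermal markers rose (median 1.18; 4816 to 23185 against 17607 to 38080 CPM), as did 6 of 7 leukocyte markers (median 0.80; 343 to 608 against 478 to 1136 CPM) and 4 of 9 neural and neural crest markers (median 0.64; 75.6 to 248 against 188 to 281 CPM). Of the outflow tract smooth muscle markers 1 of 4 fell, of the skeletal muscle markers 2 of 6, and of the liver and yolk markers 0 of 5 moved either way. Fewer cells of a type and less RNA per cell cannot be told apart in such bulk samples, and the part of these shifts in the results below was not tested except where a value is given.

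The values of most Slc25 members were lower in DKO than in CTRL hearts, and for 15 of them the decrease passed the test. Among the 39 tested members, 15 fell (38.5%) and 3 rose (7.69%), while 13.9% of all tested genes fell and 13.2% rose. These counts depend on the scaling: with libraries scaled on the cardiomyocyte markers instead, 1 member fell (2.56%, against 1.91% of all genes) and 10 rose (25.6%, against 63.3%). A lower value, regardless of the test, was seen in 30 members (76.9%, against 47.7% of all genes). The median log2 fold change was −0.28 over the members and 0.02 over all genes. Changes larger than 1.5-fold were fewer: 7 members fell by more than that (17.9%, against 8.54% of all genes) and 1 rose (2.56%, against 9.06%). The study's own thresholds, which also require an FPKM above 5 in at least 1 library, left 4 lower members (10.3%, against 4.66%), namely *slc25a3b*, *slc25a5*, *slc25a11* and *slc25a12*, and 0 higher members (against 3.32%). In 3 members, *slc25a11*, *slc25a12* and *slc25a46*, no DKO library reached the lowest CTRL library (7.69%, against 4.38% of all genes), and in 0 members all DKO libraries exceeded the highest CTRL library (against 1.29%).

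**Figure D1:**
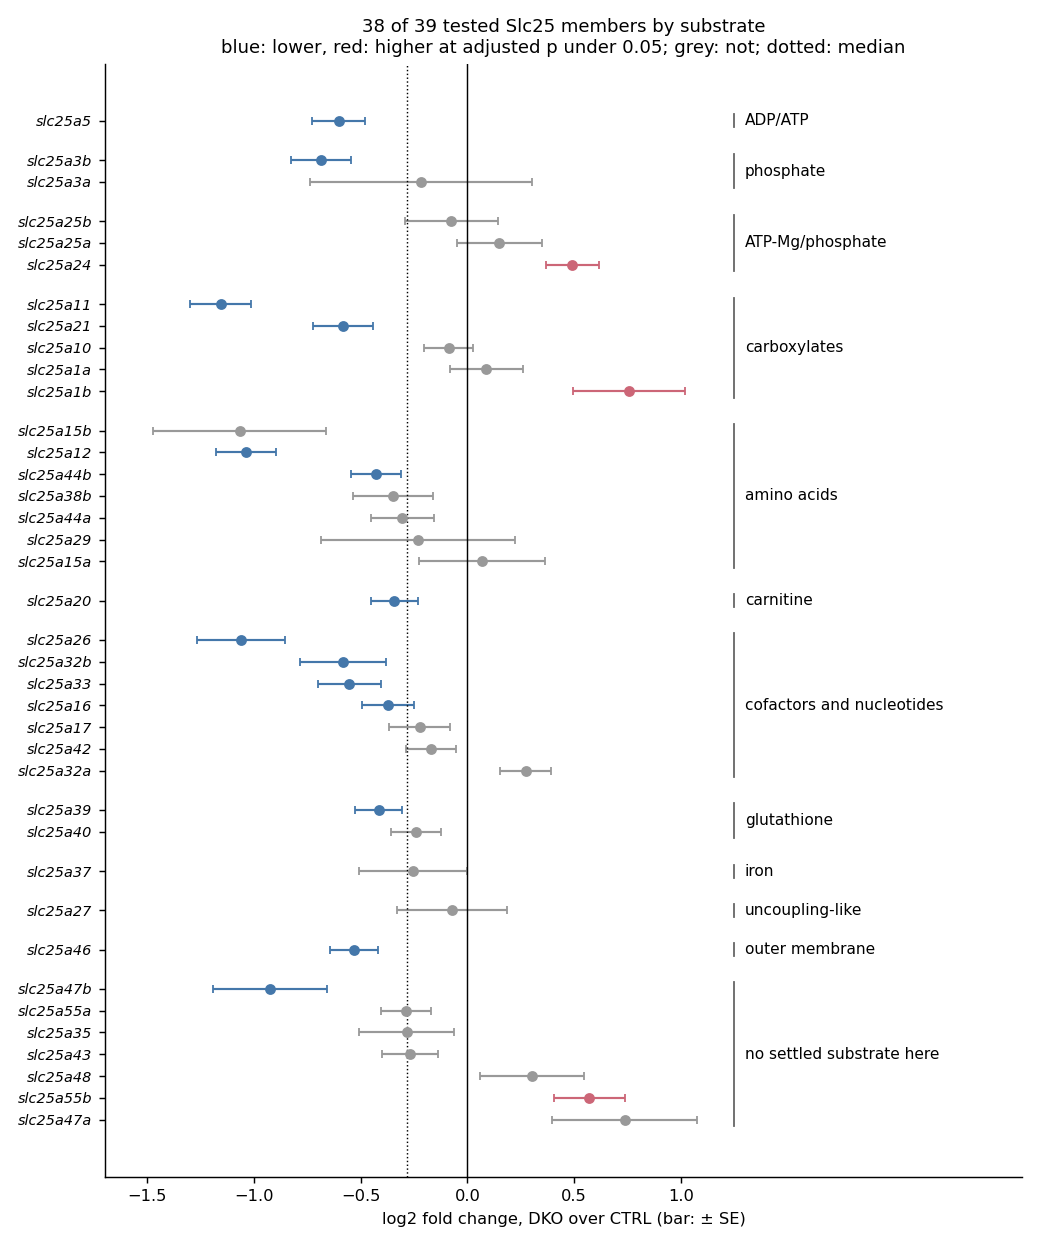
Log2 fold change of 38 of the 39 tested Slc25 members (horizontal axis, DKO over CTRL, bars ± SE) grouped by substrate, with 14 members that fell in blue, 3 that rose in red and 21 that did not pass in grey. The dotted line marks the median of −0.28 over all 39 tested members, and *slc25a11* lies lowest at −1.16.

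Decreases were found among both abundant and scarce carriers, with a larger share among the abundant ones, as over all genes. When the tested members were ordered by their mean CPM over all 16 libraries, a split chosen after the values were seen, 6 of the 10 most abundant fell and 1 rose. Of the 3006 tested genes at or above the same level (66.5 CPM), 23.7% fell and 15.1% rose. Among the 29 less abundant members 9 fell and 2 rose, where 10.5% and 12.6% of the genes below that level did so. The members together took 9310 to 13889 CPM in CTRL libraries (median 11879) and 6498 to 9374 in DKO libraries (median 8180), so that the ranges overlapped only between the lowest CTRL library and the highest DKO library. Without *slc25a5* they took 2794 to 3875 CPM in CTRL (median 3494) and 1745 to 2786 in DKO (median 2361), and these ranges did not overlap.

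ADP/ATP carriers, which bring ADP into the matrix and release ATP to the cytosol, were represented almost entirely by *slc25a5*, whose counterpart is the widely expressed form in mammals. It ranged from 6516 to 10014 CPM in CTRL libraries with a median of 8430, and from 4411 to 6730 CPM in DKO libraries with a median of 5819. All but 2 DKO libraries lay below the lowest CTRL library, and all but 1 CTRL library above the highest DKO library. *slc25a5* fell to 65.8% of the CTRL level (log2 fold change −0.60, SE 0.12, adjusted p = 0.00113). Its change was close to the 1.5-fold threshold: when each library was left out in turn it was over 1.5-fold in 10 of 16 fits (range 1.467 to 1.566), and not over it without CTRL replicate 1, 5 or 7 or DKO replicate 1, 4 or 5. This single gene supplied 0.689% to 0.873% of all reads on genes in CTRL libraries and 0.483% to 0.719% in DKO libraries. It held 69.6% to 72.4% of the family's reads in CTRL and 67.7% to 73.2% in DKO libraries, so its weight within the family moved little while its level fell.

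The other ADP/ATP carrier genes were close to absent. *slc25a4*, whose mammalian counterpart is the heart and muscle form, had 0 to 22 reads in CTRL and 0 to 30 reads in DKO libraries, and *slc25a6* 0 to 15 and 2 to 12 reads. At least 99.9% of the reads on these 3 genes fell on *slc25a5* in every library. The lowest share was 99.95% in CTRL and 99.94% in DKO libraries. Reads that match near-identical copies equally well were not counted, which limits the precision for such related genes.

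Phosphate reaches the matrix through the Slc25a3 carriers, and here almost all of their reads fell on *slc25a3b*. Its level was 1134 to 1879 CPM in CTRL hearts (median 1511) and 572 to 1232 CPM in DKO hearts (median 909). The groups overlapped only through CTRL replicate 2, the lowest of its group, which lay below DKO replicates 6 and 8. *slc25a3b* fell to 62.1% (log2 fold change −0.69, SE 0.14, adjusted p = 0.00112). The second copy, *slc25a3a*, had a median of 1.18 CPM in CTRL and 0.774 CPM in DKO libraries and did not pass (log2 fold change −0.22, SE 0.52). Per length, the ADP/ATP carrier had the highest FPKM of the 45 members that have one, which leaves out *slc25a55a*, with a median of 3316 in CTRL hearts for *slc25a5*, 96.8 for *slc25a3b*, 25.1 for *slc25a20*, 24.1 for *slc25a11* and 18.7 for *slc25a12*. Since each FPKM was divided by nearly the whole gene, introns included (2.442 kb for *slc25a5*, 14.624 kb for *slc25a3b*), this order favors compact genes.

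The malate-aspartate shuttle carries reducing power from cytosolic NADH into the matrix and needs a pair of carriers. The genes of these carriers had the smallest adjusted p-values of the family. *slc25a11*, the 2-oxoglutarate/malate carrier, ranged from 318 to 504 CPM in CTRL libraries (median 404) and from 123 to 237 CPM in DKO libraries (median 192). The groups did not overlap. It fell to 44.9% (log2 fold change −1.16, SE 0.14, adjusted p = 3.94e-06). The aspartate/glutamate carrier gene *slc25a12* ranged from 343 to 461 CPM in CTRL (median 409) and from 132 to 258 CPM in DKO libraries (median 185), again without overlap. This gene fell to 48.7% (log2 fold change −1.04, SE 0.14, adjusted p = 1.55e-05). Of the family's reads *slc25a11* took 2.87% to 3.69% in CTRL and 1.84% to 2.87% in DKO libraries, and *slc25a12* 2.51% to 3.78% and 2.04% to 2.78%. In DKO libraries both were thus mostly a smaller part of the family's total.

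The enzymes of the same shuttle, which are not carriers, fell as well. All 6 tested genes of the list fell, against 13.9% of all genes, with a median log2 fold change of −1.01. In 4 of them the groups did not overlap, with every DKO library lower, as in 4.38% of all genes. Scaled on the cardiomyocyte markers, 3 of the 6 fell (1.91% of all genes), with a median of −0.37 (0.77 over all genes). The largest decrease was that of *mdh1ab*, encoding a cytosolic malate dehydrogenase, at −1.62 (SE 0.20, adjusted p = 7.33e-06). As a group they summed to 2303 to 3707 CPM in CTRL and 1007 to 2113 CPM in DKO libraries.

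**Figure D2:**
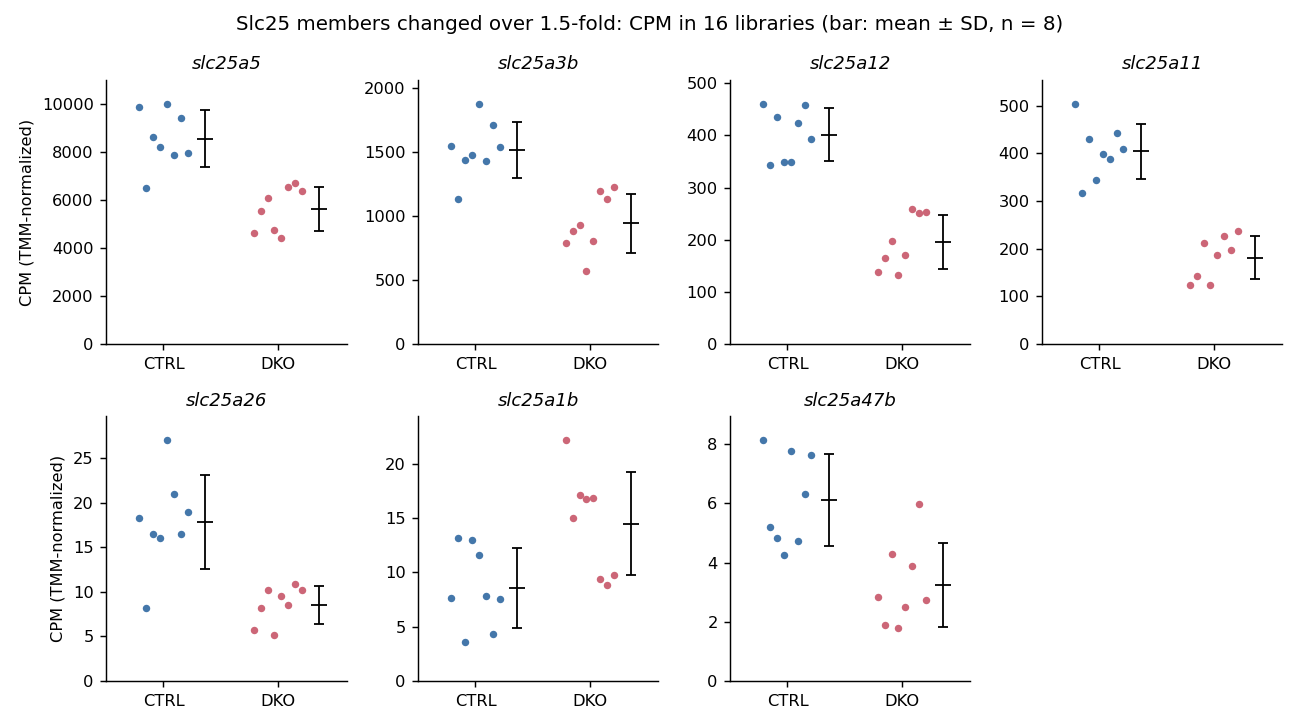
CPM of 7 members that changed by more than 1.5-fold at adjusted p under 0.05, in 8 CTRL and 8 DKO libraries (1 point per library, linear axes from 0, bars mean ± SD). For *slc25a11* (318 to 504 against 123 to 237) and *slc25a12* (343 to 461 against 132 to 258) the groups do not overlap, and *slc25a1b* is the only member of the 7 that is higher in DKO libraries.

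Carriers of other carboxylates went in different directions. The 2-oxoadipate carrier gene *slc25a21* fell to 66.8% (log2 fold change −0.58, SE 0.14, adjusted p = 0.00364), with 6 of 8 DKO libraries below all CTRL libraries. *slc25a10*, a dicarboxylate carrier, and *slc25a1a*, a citrate carrier, did not pass, at −0.09 (SE 0.12) and 0.09 (SE 0.17). The second citrate carrier gene, *slc25a1b*, was low in both groups, at 3.56 to 13.1 CPM in CTRL (median 7.75) and 8.82 to 22.1 CPM in DKO libraries (median 15.9). It rose to 169% (log2 fold change 0.76, SE 0.26, adjusted p = 0.0359). The groups overlapped: 5 DKO libraries lay above all CTRL libraries and the other 3 within their range. Its 3 highest CTRL libraries, replicates 2, 4 and 5 at 13.1, 13 and 11.6 CPM, also had the highest summed epidermal markers of their group, at 18885, 23185 and 16838 CPM. The 3 lowest DKO libraries, replicates 6, 7 and 8 at 9.40, 8.82 and 9.79 CPM, had the lowest epidermal sums of theirs, at 25863, 17607 and 21665 CPM. These libraries were picked after the values were seen, for *slc25a1b* alone. Of other members that rose, *slc25a24* was highest among CTRL libraries in replicate 8 (73.9 CPM, epidermal sum 8407 CPM). It was lowest there in replicates 3 and 1 (44.8 and 46.5 CPM, epidermal sums 4816 and 5526.5 CPM). Among DKO libraries *slc25a24* was highest in replicates 1 and 2 (111 and 91.2 CPM, epidermal sums 37677 and 38080 CPM). In those DKO replicates *slc25a55b* was at 13.7 CPM, the lowest of its group, and at 25.7 CPM. These libraries too were picked after the values were seen. The part of epidermal cells in these values was not tested. With 10 of the 16 libraries left out singly, *slc25a1b* no longer passed (adjusted p 0.0182 to 0.0926, log2 fold change 0.64 to 0.88): CTRL replicate 1, 3, 6, 7 or 8, or DKO replicate 1, 2, 3, 4 or 5.

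Of the calcium-regulated ATP-Mg/phosphate carriers, which adjust the adenine nucleotide content of the matrix, *slc25a24* was the most abundant. It ranged from 44.8 to 73.9 CPM in CTRL libraries with a median of 60.8, and from 69.6 to 111 CPM in DKO libraries with a median of 83.8. The overlap was limited to the lower DKO and the upper CTRL libraries, and 6 of 8 CTRL libraries lay below every DKO library. *slc25a24* rose to 141% (log2 fold change 0.49, SE 0.12, adjusted p = 0.00499). Its relatives *slc25a25a* (0.15, SE 0.20) and *slc25a25b* (−0.08, SE 0.22) did not pass, and *slc25a23b* and *slc25a24l*, with 108 and 186 reads in all libraries together, were not tested.

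Among the amino acid carriers other than *slc25a12*, changes were modest. *slc25a44b*, a branched-chain amino acid carrier, fell to 74.2% (log2 fold change −0.43, SE 0.12, adjusted p = 0.0093) but did not pass under library size alone (0.060), and its copy *slc25a44a* had a value of −0.30 (SE 0.15, adjusted p = 0.142). The ornithine carrier gene *slc25a15b* had a larger value, −1.07, but at only 1.13 to 3.61 CPM in CTRL and 0.193 to 2.18 CPM in DKO libraries its error was large (SE 0.41, adjusted p = 0.0564), and it passed when CTRL replicate 2, CTRL replicate 5 or DKO replicate 2 was left out. *slc25a15a* (0.07, SE 0.30) and *slc25a29*, a basic amino acid carrier (−0.23, SE 0.46), did not pass. *slc25a38b*, a glycine carrier needed for haem synthesis, stood at −0.35 (SE 0.19, adjusted p = 0.186), and passed when CTRL replicate 5 was left out. *slc25a38a*, with 188 reads in all, was not tested.

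The carnitine/acylcarnitine carrier gene *slc25a20*, which admits fatty acids for oxidation, was 87.8 to 137 CPM in CTRL (median 114) and 64.3 to 110 CPM in DKO libraries (median 88.2). Below the whole CTRL range were 3 DKO libraries, and above the whole DKO range 5 CTRL libraries. *slc25a20* fell to 78.9% (log2 fold change −0.34, SE 0.11, adjusted p = 0.0243). It no longer passed without CTRL replicate 7 (0.06), under library size alone (0.126) or in limma on log2(FPKM + 1) (0.0986). Of the 4 tested carnitine shuttle enzymes 1 fell, where 13.9% of all genes did. This was *cpt2* at −0.49 (SE 0.15, adjusted p = 0.0207), and the median of the 4 was −0.30. When libraries were scaled on the cardiomyocyte markers, 0 of the 4 fell and 2 rose (1.91% and 63.3% of all genes), with a median of 0.41.

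Cofactor and nucleotide carriers held the largest number of decreases, with 5 of 8 tested members lower and 0 higher (13.9% and 13.2% of all genes), and were also the group with the most tested members. Scaled on the cardiomyocyte markers, 0 of the 8 fell and 2 rose (1.91% and 63.3% of all genes). *slc25a26*, which imports S-adenosylmethionine, ranged from 8.18 to 27 CPM in CTRL libraries (median 17.5) and from 5.20 to 10.9 CPM in DKO libraries (median 9.05). CTRL replicate 2 was the only CTRL library inside the DKO range. *slc25a26* fell to 48.0% (log2 fold change −1.06, SE 0.21, adjusted p = 6.65e-04). It did not reach the study's FPKM threshold, with a highest value of 0.217, which was divided by a length of 107.64 kb, introns included.

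Decreases were smaller for the pyrimidine nucleotide carrier gene *slc25a33* (log2 fold change −0.55, SE 0.15, adjusted p = 0.00786) and for *slc25a16*, a relative of the coenzyme A carriers (−0.37, SE 0.12, adjusted p = 0.0256). For *slc25a33*, 7 of 8 DKO libraries lay below all CTRL libraries. *slc25a16* ranged from 38.3 to 55.2 CPM in CTRL (median 49.6) and from 26.2 to 45.5 CPM in DKO libraries (median 38.4), and no longer passed when CTRL replicate 1, 3 or 7 or DKO replicate 1 or 4 was left out (adjusted p 0.0149 to 0.0553 over all 16 fits), under library size alone (0.127) or in limma on log2(FPKM + 1) (0.116). The coenzyme A carrier genes *slc25a42* (−0.17, SE 0.12) and *slc25a17*, which acts in peroxisomes (−0.22, SE 0.14), did not pass. *slc25a36a* and the NAD carrier gene *slc25a51a*, with 7 and 109 reads in all, were not tested.

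Glutathione import was covered by a pair of related genes. *slc25a39* ranged from 65.0 to 95.6 CPM in CTRL (median 84.4) and from 46.1 to 72.6 CPM in DKO libraries (median 61.7). The ranges overlapped in part: 5 DKO libraries were below all CTRL libraries and 6 CTRL libraries above all DKO libraries. *slc25a39* fell to 75.0% (log2 fold change −0.42, SE 0.11, adjusted p = 0.00716), and *slc25a40* did not pass (−0.24, SE 0.12, adjusted p = 0.143).

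Mitoferrins import the iron used for haem and iron-sulphur clusters. *slc25a37*, mitoferrin 1, is known for its role in developing red cells, and ranged from 3.83 to 10.2 CPM in CTRL (median 5.79) and from 2.61 to 7.95 CPM in DKO libraries (median 4.78). The groups overlapped widely, with 2 DKO libraries below all CTRL libraries. Its log2 fold change of −0.25 (SE 0.25, adjusted p = 0.517) did not pass, in the same libraries in which the red cell markers had a median of −6.81. *slc25a28*, mitoferrin 2, had 2 reads in all 16 libraries together and was not tested. Of 15 tested genes of haem and iron-sulphur synthesis 8 fell, against 13.9% of all genes, with a median of −0.43. The largest decrease was in *ppox*, encoding protoporphyrinogen oxidase, at −1.23 (SE 0.20, adjusted p = 1.22e-04). With libraries scaled on the cardiomyocyte markers, 0 of the 15 fell and 3 rose (1.91% and 63.3% of all genes). Their median was then 0.31, and that of all genes 0.77.

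The uncoupling-like members had few reads. *slc25a27* ranged from 2.44 to 7.54 CPM in CTRL (median 4.51) and from 2.81 to 6.10 CPM in DKO libraries (median 3.84), inside the CTRL range, and did not pass (−0.07, SE 0.26, adjusted p = 0.878). *slc25a14* had 0 reads in every library. The uncoupling proteins themselves carry ucp symbols and were not selected by the rule. Family totals, shares and rankings here leave them out, among them *ucp2* at a median of 858 CPM in CTRL libraries. The uncoupling proteins were placed in a list of mitochondrial membrane proteins outside the rule. This list also holds the pyruvate carrier, the sideroflexins, the calcium channel gene *mcu* and *mtch2*, whose product sits in the outer membrane. Of its 13 tested genes 5 fell and 2 rose, where 13.9% and 13.2% of all genes did so. *mtch2* was among those that fell, at −0.61, and *mcu* among those that rose, at 0.46. Lowest was *mpc1*, a subunit of the pyruvate carrier, at −0.96 (SE 0.11, adjusted p = 1.87e-06). Highest was *sfxn2*, a sideroflexin, at 0.53 (SE 0.13, adjusted p = 0.00416). Under the scaling on cardiomyocyte markers, 0 of the 13 fell and 4 rose (1.91% and 63.3% of all genes), with a median of 0.35.

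*slc25a46* differs from the other members in that its product sits in the outer membrane and acts in mitochondrial shape. It ranged from 31.6 to 45.1 CPM in CTRL (median 36.5) and from 21.5 to 30.1 CPM in DKO libraries (median 26). No DKO library reached the CTRL range, although the change was below 1.5-fold. *slc25a46* fell to 69.1% (log2 fold change −0.53, SE 0.11, adjusted p = 0.00125).

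*slc25a55a*, the most abundant member without a settled substrate, came next in CPM after the ADP/ATP, phosphate and shuttle carriers. It ranged from 192 to 314 CPM in CTRL (median 237) and from 174 to 255 CPM in DKO libraries (median 188), did not pass (log2 fold change −0.29, SE 0.12, adjusted p = 0.0706), and passed when CTRL replicate 8 or DKO replicate 3 was left out. *slc25a47b* was scarce but fell to 52.7%, from 4.26 to 8.13 CPM in CTRL (median 5.77) to 1.80 to 6.0 CPM in DKO libraries (median 2.78; log2 fold change −0.92, SE 0.27, adjusted p = 0.0129). In 6 of 8 DKO libraries it was below all CTRL libraries. *slc25a43* (−0.27, SE 0.13), *slc25a35* (−0.28, SE 0.22) and *slc25a48* (0.30, SE 0.24) did not pass, and *slc25a34*, with 112 reads in all, was not tested. *slc25a43* passed when DKO replicate 3 was left out.

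The balance between related copies was compared through the share of reads that the first copy held within each set, a measure that does not depend on how libraries are scaled against each other. Of 11 sets, 3 changed at an adjusted p under 0.05 (two-sided exact permutation test over the 16 libraries, adjusted over the 11 sets), and 2 when groups were flipped within replicate numbers, since *slc25a32a* was lost (adjusted p = 0.0573). That flip test is coarse: with 8 replicate numbers its lowest possible p before adjustment is 0.0078, and *slc25a32a* had 0.0156. For the folate and flavin carriers, *slc25a32a* held 84.2% to 89.8% of the reads of *slc25a32a* and *slc25a32b* in CTRL (median 85.7%) and 88.7% to 95.9% in DKO libraries (median 91.8%). The mean share rose by 5.32 percentage points (exact permutation p = 0.0014, adjusted p = 0.00769), and 5 DKO libraries exceeded all CTRL libraries. In that pair *slc25a32b* fell from 4.87 to 10.3 CPM in CTRL (median 8.04) to 3.58 to 7.33 CPM in DKO libraries (median 5.04; log2 fold change −0.58, SE 0.20, adjusted p = 0.0367), and passed in 6 of the 16 fits with a library left out. It also did not pass with the replicate block (0.065), under library size alone (0.114) or in limma on log2(FPKM + 1) (0.0778). It was lost without CTRL replicate 3, 4, 6, 7 or 8 or DKO replicate 2, 3, 4, 5 or 8. *slc25a32a* had a value of 0.27 (SE 0.12, adjusted p = 0.0983), from 40.2 to 57.8 CPM (median 49.0) to 47.4 to 88.7 CPM (median 56.7), with DKO replicate 3 far above the rest.

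The *slc25a47* pair showed the widest swing. *slc25a47a* held 18.3% to 55.0% of the pair's reads in CTRL (median 44%) and 51.4% to 85.4% in DKO libraries (median 68.0%), a mean difference of 26.3 percentage points (exact permutation p = 9.32e-04, adjusted p = 0.00769). The groups overlapped narrowly, since 6 DKO libraries lay above all CTRL libraries. Along with the decrease of *slc25a47b*, *slc25a47a* had 1.74 to 8.83 CPM in CTRL (median 4.03) and 2.90 to 15.9 CPM in DKO libraries (median 6.23; log2 fold change 0.74, SE 0.34, adjusted p = 0.117), and passed when CTRL replicate 1 was left out. The share rested on as few as 75 reads per library. On the GRCz12tu assembly RefSeq places *slc25a47a* over *slc25a29* and *slc25a47b* over *slc25a29l*, so reads from the neighbours cannot be fully separated. Other members also overlap annotated genes there, among them *slc25a3b*, *slc25a26* and *slc25a44b*.

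In the *slc25a55* pair the minor copy gained. *slc25a55a* held 91.1% to 96.5% of the reads in CTRL (median 94.3%) and 86.6% to 93.8% in DKO libraries (median 90.3%), a mean difference of −3.96 percentage points (exact permutation p = 0.00249, adjusted p = 0.00912). *slc25a55b* rose from 11.5 to 19.3 CPM in CTRL (median 14) to 13.7 to 30.1 CPM in DKO libraries (median 21.3), to 149% (log2 fold change 0.57, SE 0.17, adjusted p = 0.0141). For both copies the groups overlapped, and 5 DKO libraries lay above all CTRL libraries for *slc25a55b*. The other 8 sets did not pass, the nearest being *slc25a15a* of the ornithine carriers (68.9% against 83.8% on average, exact permutation p = 0.0225, adjusted p = 0.062). That set passed when CTRL replicate 2 or DKO replicate 6 was left out.

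**Figure D3:**
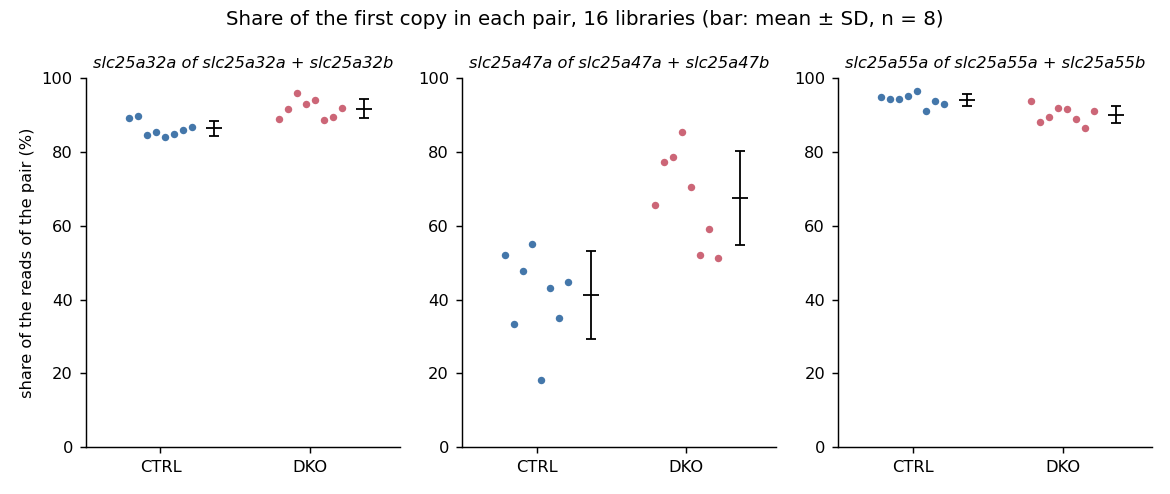
Share of the reads of each pair held by the first copy, in percent, for *slc25a32a*, *slc25a47a* and *slc25a55a* (1 point per library, axis from 0 to 100, bars mean ± SD over 8 libraries). The share of *slc25a47a* lies between 18.3% and 55.0% in CTRL and between 51.4% and 85.4% in DKO libraries.

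Most tested genes of the route that brings these carriers to the inner membrane fell. Of the 15 genes listed, *timm22* was not among the genes counted and *tomm22* had 0 reads in every library. Of 13 tested genes of the carrier import route 12 fell and 0 rose, with a median log2 fold change of −0.58, where 13.9% of all genes fell. In 9 of them the groups did not overlap, as in 4.38% of all genes. Scaled on the cardiomyocyte markers, 0 of the 13 fell and 1 rose, against 1.91% and 63.3% of all genes. The median of the 13 was then 0.22, and that of all genes 0.77. Nearest to passing as lower under this scaling was *timm8a* at −0.46 (adjusted p = 0.053). *timm8a*, encoding a small chaperone of the intermembrane space, had the largest decrease at −1.20 (SE 0.14, adjusted p = 2.91e-06). In sum the route took 1180 to 1665 CPM in CTRL and 797 to 1026 CPM in DKO libraries. This list and the other context lists overlap in function with genes that the study examined in these samples, so their direction is not independent evidence.

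Because cardiomyocyte markers fell in the same libraries, 4 abundant members are given beside the summed markers of single libraries, which were chosen after the values were seen. The largest single part of this sum was *nppa*, at a mean of 10046 CPM in CTRL and 5494 CPM in DKO libraries. CTRL replicate 2, at 17923 CPM, was the only CTRL library whose marker sum lay within the DKO range. CTRL replicate 4 had the next sum at 21517 CPM. The highest DKO sums were those of replicates 3, 6, 7 and 8, at 18899, 17667, 18705 and 20091 CPM. *slc25a11* was 318 and 344 CPM in these CTRL replicates, and 212, 226, 198 and 237 CPM in the DKO replicates in the same order. *slc25a12* was 343 and 348 CPM against 198, 258, 251 and 252 CPM. Both shuttle carriers were higher in these 2 CTRL libraries than in the 4 DKO libraries. Any choice of libraries would give this, since their groups did not overlap. *slc25a5* was 6516 and 8234 CPM against 6070, 6529, 6730 and 6397 CPM. *slc25a3b* was 1134 and 1477 CPM against 936, 1201, 1132 and 1232 CPM. For these genes CTRL replicate 2 lay among the DKO values and CTRL replicate 4 above them. CTRL replicate 5, whose marker sum of 22757 CPM came next, had the highest values of both genes in any library, 10014 and 1879.5 CPM. The other 4 DKO libraries, with marker sums of 8323 to 11336 CPM, had the lowest values of all 4 genes. The part of the marker-bearing cells in these values was not tested.

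**Figure D4:**
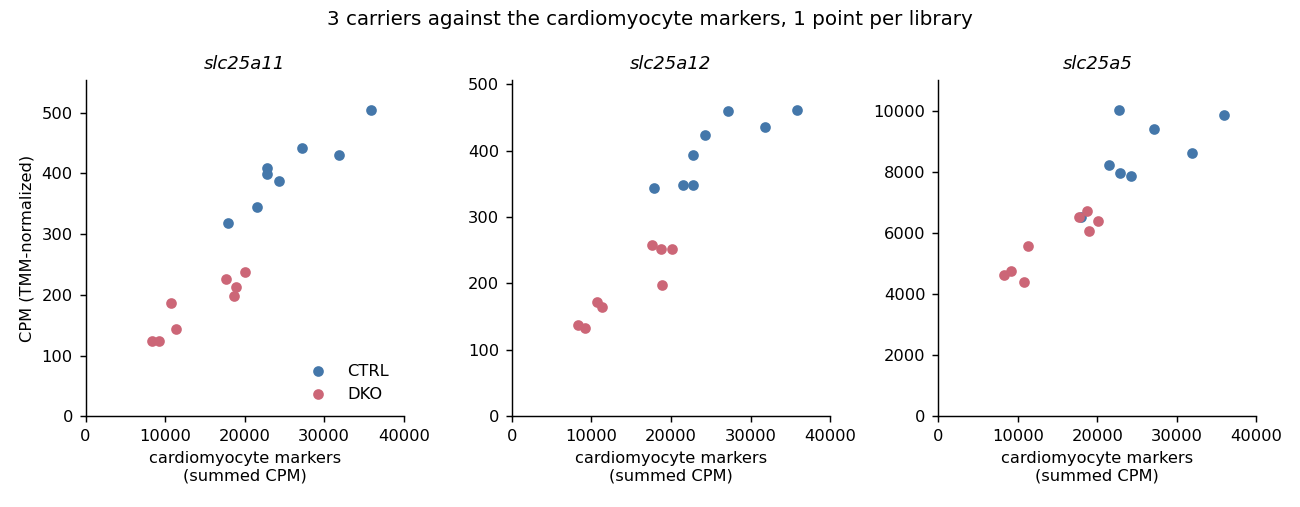
CPM of *slc25a11*, *slc25a12* and *slc25a5* (vertical axes, from 0) against the summed CPM of the cardiomyocyte markers (horizontal axis, from 0), 1 point per library. Levels of both groups overlap for *slc25a5* and do not overlap for the shuttle carriers.

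The direction of most changes depended on the scaling. Scaling the libraries on the 21 cardiomyocyte markers moved the median of all genes from 0.02 to 0.77 and that of the members from −0.28 to 0.46, which is −0.31 relative to all genes under either scaling. The markers did not move as 1 under their own scaling: 5 of the 21 fell and 5 rose, against 1.91% and 63.3% of all genes. *slc25a11* was then the only member that fell (log2 fold change −0.47, adjusted p = 0.0200). Values of *slc25a12*, *slc25a15b*, *slc25a26*, *slc25a3b* and *slc25a47b* also stayed below 0 but did not pass, and *slc25a12* was nearest at −0.37 (adjusted p = 0.0527). Under library size alone, where the median of all genes was 0.17, 11 members fell and 4 rose. Over all genes, decreases made up 51.2% of calls with TMM, 31% with library size alone and 2.92% with the marker scaling.

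**Figure D5:**
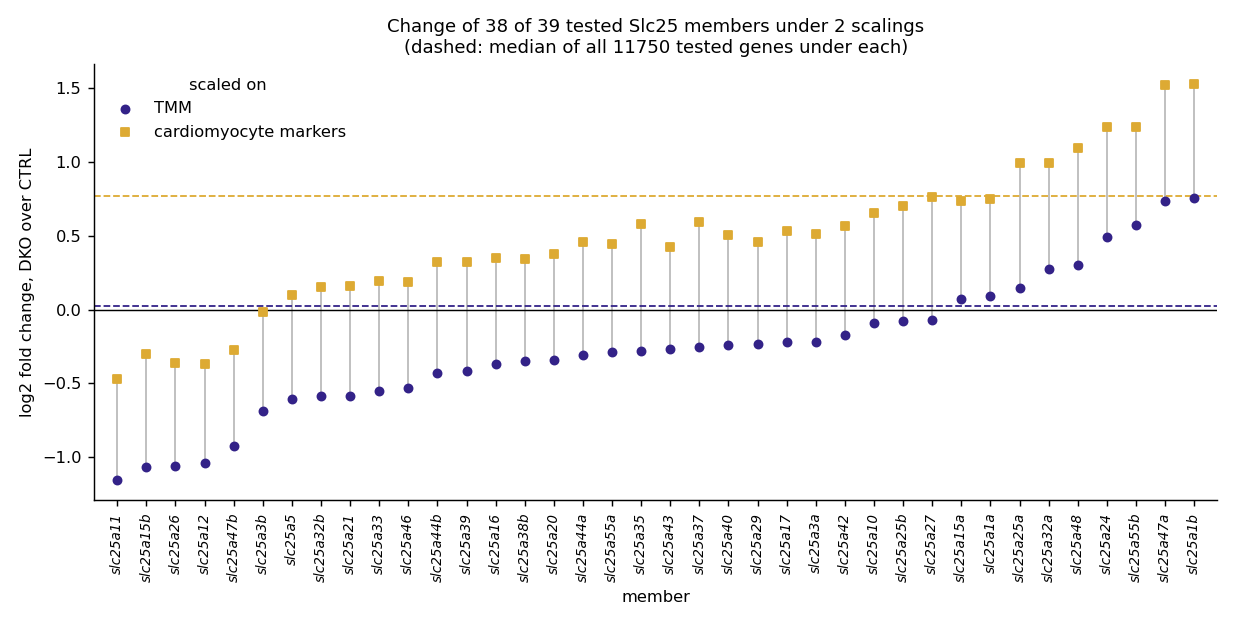
Log2 fold change (DKO over CTRL) of 38 of the 39 tested members under TMM (circles) and under scaling on the cardiomyocyte markers (squares), ordered by the TMM value, with the median of all 11750 tested genes under each scaling as a dashed line (0.02 and 0.77). *slc25a11* stays lowest under both, at −1.16 and −0.47.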

How the data were processed

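The authors selected poly(A) RNA, sequenced paired reads, aligned them with STAR 2.6.1a to GRCz11 and made the deposited counts, whole reads per RefSeq gene, with HTSeq 0.11.2, and from these the deposited FPKM values. The strand setting is not given in the sources used here. The length behind FPKM had a median ratio of 0.994 to the GRCz12tu gene span (12586 genes). Entries that name no gene (59.6% to 65.6% of reads on none, 12.8% to 16.4% not unique, 0.0287% to 0.0524% ambiguous) were left out. No 2 replicates agreed within sampling noise (lowest chi-square per gene 10.3), and all 16 were kept.

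Counts were tested with edgeR 4.0.16 (R 4.3.3; filterByExpr, TMM, quasi-likelihood F-test, two-sided, robust) without covariates, adjusted over 11750 genes. Each SE follows from the log2 fold change and the F statistic. Calls used an adjusted p under 0.05, and a second count the study's thresholds (also 1.5-fold and FPKM 5). Shares were tested with scipy 1.17.1 on sets with at least 10 reads per library. Figures used matplotlib 3.10.9. The method was tested on simulated data.

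Alternatives were DESeq2 1.42.0, its size factors, library size alone, scaling without haemoglobin genes or on cardiomyocyte markers, other count filters, limma 3.58.1 on log2(FPKM + 1) or log2(FPKM + 0.1), no FPKM threshold, a replicate block and each library left out.

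Members and lists were chosen with earlier results of these data known. Members are given in full if they changed over 1.5-fold, are the most abundant of their substrate group or belong to a set whose share changed. The values of 1 member are not reported here, although it is part of every count. List genes are named if they pass with the largest change. Without molecular identifiers, reads are not independent molecules.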

Additional observations from a re-analysis of the deposited data

Results flagged for a closer look

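Within each group of 8 libraries, the highest and the lowest CPM of every tested member were compared with their nearest neighbour. The same was done for the shares, except those of *slc25a3a*, *slc25a4* and *slc25a28*. These groups are not independent, since a share uses the same reads as the CPM. In 9 of 94 such groups a single library stood apart by more than Dixon's 95% limit for 8 samples, where chance alone gives about 1 in 20. DKO replicate 3 appeared most often, with the highest CPM of its group for the folate and flavin carrier gene *slc25a32a* (88.7, next 61.4), for the glutathione carrier gene *slc25a40* (27.4, next 21.8) and for *slc25a55a* (255, next 207). DKO replicate 2 was highest for *slc25a25a*, an ATP-Mg/phosphate carrier gene, both in CPM (40.3, next 22.7) and in its share of the reads of *slc25a25a* and *slc25a25b* (84.4%, next 72.5%). For the pyrimidine nucleotide carrier gene *slc25a33*, CTRL replicate 1 was high at 71.1 CPM (next 49.2) and DKO replicate 5 low at 19.5 CPM (next 28.8). The other libraries that stood apart were CTRL replicate 3 for *slc25a43* (27.8 CPM, next 23.7) and DKO replicate 7 for the scarce phosphate carrier gene *slc25a3a* (3.54 CPM, next 1.70).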

How the results depend on the processing

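The counts of lower and higher members (15 and 3) stayed within 1.5 times under DESeq2 (16 and 3), its size factors, removal of haemoglobin genes, both count filters, limma on FPKM (13 and 4) and library size alone (11 and 4). With each library left out, 12 to 17 members were lower, 2 to 3 higher, 3 to 4 lower by the study's thresholds, and the median ranged from −0.33 to −0.26. Members lower and higher by the study's thresholds (4 and 0) became 7 and 1 without the FPKM threshold, 2 and 1 under library size alone, 2 and 0 under limma on log2(FPKM + 1), and 2 and 1 on log2(FPKM + 0.1), with medians of −0.13, −0.071 and −0.13 under the last 3. Under these 3 settings *slc25a10* turned to 0.062, 0.051 and 0.059, *slc25a25b* to 0.077, 0.033 and 0.12, and *slc25a27* to 0.11, 0.037 and 0.085, none of them past the test.

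Scaling on the cardiomyocyte markers gave 1 lower and 10 higher members, 0 and 3 by the study's thresholds, and a median of 0.46. Since this scaling moved the median of all genes from 0.02 to 0.77, signs turn by its construction, and the log2 fold changes of 23 members became positive: *slc25a5* 0.10, *slc25a32b* 0.15, *slc25a21* 0.16, *slc25a46* 0.19, *slc25a33* 0.20, *slc25a39* 0.32, *slc25a44b* 0.32, *slc25a38b* 0.34, *slc25a16* 0.35, *slc25a20* 0.38, *slc25a43* 0.42, *slc25a55a* 0.44, *slc25a44a* 0.46, *slc25a29* 0.46, *slc25a40* 0.51, *slc25a3a* 0.51, *slc25a17* 0.53, *slc25a42* 0.57, *slc25a35* 0.58, *slc25a37* 0.59, *slc25a10* 0.65, *slc25a25b* 0.70 and *slc25a27* 0.76. Only *slc25a10* and *slc25a42* of these passed.

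With a library left out, 4 members near 0 changed sign: *slc25a15a* (−0.069 to 0.23), *slc25a25a* (−0.052 to 0.27), *slc25a25b* (−0.20 to 0.019) and *slc25a27* (−0.17 to 0.081). So did the differences in share of *slc25a4* (−0.00146 to 0.00597 percentage points) and *slc25a28* (−0.16 to 0.154), both resting on few reads. The shares that changed numbered 3 to 4.

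Replicate numbers are shared between the groups, but same-numbered libraries did not deviate together (correlation of deviations −0.27 to 0.11). The study states that DKO embryos were compared with siblings of their own clutch, but not whether equal replicate numbers share a clutch. Whether the numbers pair the samples cannot be told from these correlations, and the main test ignores any such pairing. With the replicate block 14 members were lower, 3 higher, 4 lower by the study's thresholds, and the median was −0.29. For the shares, flipping groups within replicate numbers, again a block, kept *slc25a47a* and *slc25a55a* (adjusted p = 0.043 each, exact permutation) but not *slc25a32a* (0.0573). The lowest p that this flipping can give before adjustment is 0.0078.

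Members below about 5 CPM rest on few reads, and 10 members had too few reads for a test. Whether low expression or the counting lay behind this was not tested.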
